A study of Mus musculus with 9 samples.

Results

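The comparison set 3 samples of ATP-depleted mouse E14 embryonic stem cells (E14TG2a) against 3 untreated samples of the same line, 6 of the 9 samples of the series. The members were taken from the sample titles and from the matching columns of the deposited table, with A and C nucleotides as the readings. According to the labels' protocols, depleted cells spent 10 min in glucose-free medium to which 2-deoxyglucose (10 mM) and sodium azide (10 mM) had been added, and both compounds stayed in the wash, trypsin and resuspension solutions. Untreated cells went through the same handling without that incubation and without the compounds. All cells then received dimethyl sulfate (DMS) at 1.6% during 6 min at 37 °C, buffered with bicine at 250 mM, and each sample was collected independently. The groups shared their genotype. Samples without DMS were not analysed here, and neither the background mutation level of a nucleotide nor the ATP level of the cells is known.

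A 5′ untranslated region, or leader, is the stretch of an mRNA before the coding sequence. The scanning ribosome passes along it, and ATP-dependent RNA helicases open base pairs there. 2-Deoxyglucose blocks glycolysis and azide blocks the respiratory chain, so together they lower cellular ATP. DMS methylates the pairing face of A and C where it is not engaged in a base pair or shielded, and mutational profiling reads the methylated base as a mutation in the cDNA.

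The leaders came from 69 transcripts, read in 161 amplicons of 250 nt. They held 16187 A and C readings, 6840 of A and 9347 of C, at 13550 distinct positions, and 2637 positions were read in 2 overlapping amplicons. Positions are counted from the transcript's first nucleotide. The deposited values are log2 CPM, where CPM stands for a nucleotide's counts scaled by the total counts of its amplicon and sample times a library factor. This factor, worked out from the values, ran from 0.595 to 1.25 over the libraries. That the counts are mutation counts is taken from the assay, since no source used here names the counted events. The values describe where along an amplicon the signal lies and cannot show a rise or fall of the whole amplicon. Total counts were 11260434, 12616275 and 11270560 in the depleted samples and 9746013, 11041359 and 12116137 in the untreated ones. A single amplicon library held 986 to 624295 counts, with a median of 50332.5, and 27 amplicons had under 5000 counts in at least 1 sample.

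The sequences below show the windows on which the account turns. The first 4 had the smallest p for a lower signal after depletion, Taok2 and Dusp16 were read as lower in both of their amplicons, and the last was a higher window that was read in a second amplicon. A and C, the bases that DMS reports, are in capitals, and the letters are those of the deposited table.
Trpm7 176 to 200: tgttCggtggCCCgtgCCACCgCCt
Eif5 551 to 566: AACgtCAACCgCAgCg
Sertad2 151 to 175: AgAggACgCCggAgtCgtAgCtCCg
Chd2 51 to 75: CtttgCtCCCtgCttCggttCACtt
Taok2 526 to 550: CtCggggtgggCCCCttgtCgtggC
Dusp16 551 to 575: AgggCtCttgCtgAAAtggAtttAA
Ddx17 351 to 375: gAgtgAAAttttAgtgtAAtgtgtt

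No leader had a nucleotide, a 25-nt window or an amplicon summary that passed an adjusted p of 0.05 in limma with Benjamini-Hochberg adjustment. Of 16178 tested A and C readings, 0 (0%) passed, and 1065 (6.58%) had an unadjusted p under 0.05, 722 lower after depletion (4.46%) and 343 higher (2.12%). Of 1345 window readings with at least 5 A or C, from 1115 distinct windows, 0 (0%) passed and 113 (8.4%) had an unadjusted p under 0.05, 97 lower (7.21%) and 16 higher (1.19%). With each amplicon and sample centred on its own A and C mean, 116 windows had an unadjusted p under 0.05, split 54 higher and 62 lower. Beside the uneven split on the deposited scale stood a small common offset: the mean A and C value was lower after depletion in 135 of 161 amplicons, with a median of -0.05 on the log2 scale. The offset holds any group difference in the library factor, which was not tested. The samples' A and C profiles correlated as well between the groups, at a mean Pearson r of 0.819 over 9 pairs (0.755 to 0.892), as within the depleted group at 0.845 (0.812 to 0.874) and the untreated group at 0.802 (0.770 to 0.850). These are correlations across nucleotides, which are not independent replicates.

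The question of how small a shift the data exclude was answered from the 95% interval of each difference. At single nucleotides the interval lay inside a 2-fold difference for 10269 of 16178 readings (63.5%) and inside 1.5-fold for 4994 (30.9%). The median largest difference still inside the interval was 1.72-fold. Averaging over a window narrowed it: 1323 of 1345 windows (98.4%) excluded a 2-fold difference, 1173 (87.2%) a 1.5-fold and 664 (49.4%) a 1.25-fold difference, and the median limit was 1.25-fold. An amplicon mean is scaled by the amplicon's own counts, so a shift of the whole amplicon, of any size, would not show in it. On that scale, all 161 amplicon means excluded a 1.5-fold difference. These intervals hold 1 feature at a time. Widened to hold for all features of a kind together by Bonferroni adjustment, they excluded a 2-fold difference in 657 of the windows (48.8%) and at none of the 16178 nucleotides.

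Counts set how small a shift could be seen. Nucleotides with 10 to 30 mutation counts on average per sample had a median limit of 4.02-fold (829 readings), those with 100 to 300 had 1.96-fold (4652 readings), those with 1000 to 3000 had 1.39-fold (1995 readings), and the 187 above 3000 had 1.32-fold. The share with an unadjusted p under 0.05 went the other way, from 10.6% at 10 to 30 counts to 1.60% above 3000. The fit drew the variance of every reading towards 1 common value, though the median SE fell from 0.577 to 0.129 between these classes. These shares therefore do not show that weak bases differed more, and the limits rest on the same fit. By signal level, the share was 11.1% in the weakest of 4 equal classes of readings and 3.44% in the strongest. Windows built from values at or above the median alone had an unadjusted p under 0.05 in 24 of 865 (2.77%). A, which had the higher signal, was bounded more tightly than C, with median limits of 1.58-fold and 1.86-fold. An unadjusted p under 0.05 was seen at 312 of 6836 A readings (4.56%) and at 753 of 9342 C readings (8.06%), 532 of the C readings being lower after depletion.

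**Figure D1:**
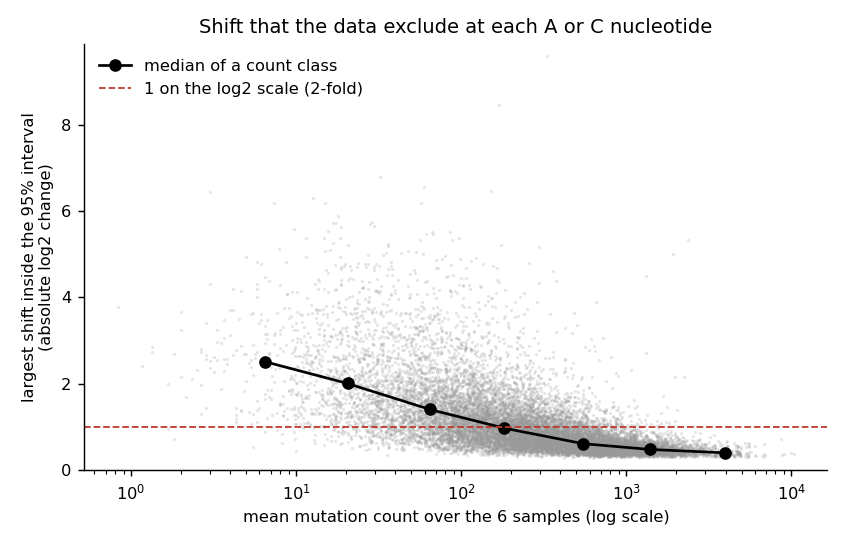
Largest difference still inside the 95% interval (absolute log2 change) for each of the 16178 A and C readings, against the mean mutation count over the 6 samples on a log axis. Black points join the median of each count class and the dashed line marks a 2-fold difference. The medians cross the dashed line in the class of 100 to 300 counts.

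The leaders differed widely in what could be excluded. Ext1, a heparan sulfate polymerase, had the tightest median limit per nucleotide at 1.40-fold, with 95.4% of its 480 readings excluding a 2-fold difference. The insulator protein gene Ctcf followed at 1.41-fold, Rbm10 at 1.42-fold, and the start-codon selection factor Eif5 and the ubiquitin ligase Ube4b at 1.44-fold each. At the other end stood the transcript NM177047, which has no symbol here, at 3.75-fold, Ptms at 3.63-fold, the microRNA-processing nuclease Dicer1 at 3.24-fold and Slc22a17 at 3.18-fold. Median counts per nucleotide were 741 in Ext1 and 23.3 in Ptms. In 52 of 69 transcripts every window excluded a 2-fold difference. The window with the widest interval was Rbm10 551 to 575, where a difference of 1.81 on the log2 scale was still inside.

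The window difference with the smallest p lay in the leader of Trpm7, which encodes an ion channel fused to a protein kinase. At positions 176 to 200 in the amplicon from 101 to 351, the mean of its 11 A and C was 11.42, 11.53 and 11.44 log2 CPM in the depleted samples and 11.97, 12.14 and 11.98 in the untreated ones. The groups did not overlap, as was also seen in 200 of 1345 windows (14.9%). The difference was -0.57 (SE 0.08, 95% interval -0.75 to -0.39), with an adjusted p of 0.220 in limma. The same window in the amplicon from 73 to 323 read 11.29, 11.40 and 11.34 against 11.69, 11.90 and 12.12. Its difference of -0.56 (SE 0.11, adjusted p of 0.396 in limma) was nearly the same, again with no overlap. On its 5′ side, the window at 151 to 175 differed by -0.08 and -0.07 in the amplicons from 101 and from 73, and on its 3′ side the window at 201 to 225 differed by -0.24 and -0.06. Across the 16 settings tried, the adjusted p of the first reading lay between 0.0523 and 0.689, and its difference between -0.60 and -0.20.

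Within this Trpm7 window a 7-nt inverted repeat was found after the values had been seen. The letters cggtggc at 180 to 186 are the reverse complement of gccaccg at 191 to 197, separated by 4 nt. A repeat of 7 nt or more with a gap of at least 3 nt stood in 3 of 1017 windows of full length (0.295%). All 7 A and C of its arms were lower after depletion in both amplicons, with medians of -0.84 and -1.05 on the log2 scale. The 4 A and C outside the arms had medians of -0.13 and -0.03, with the C at 199 lowest of them at -1.35 and -0.32. The C at position 192 read 10.61, 10.61 and 9.31 log2 CPM in the depleted samples and 11.63, 11.76 and 11.68 in the untreated ones in the amplicon from 101 to 351. The C at 198, just past the second arm, read 13.79, 13.62 and 13.64 against 13.52, 13.40 and 13.67, so the groups overlapped there. The arm bases were among the weakest of the window: the C at 193 rested on 7 to 29 counts per sample in one amplicon and 20 to 83 in the other.

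Another window with such a repeat, Tulp4 26 to 50, differed by 0.16 (95% interval -0.34 to 0.65). Over all 1240 readings of full-length windows, 7.26% were lower with an unadjusted p under 0.05. The share was 12.9% of 70 readings where the longest repeat had 5 nt and 12.5% of 32 readings where it had 6 nt. These were 9 and 4 readings, and the 9 include both readings of Sertad2 151 to 175, a window named by its p. Lower at any p were 75.7% of the 5-nt readings and 59.4% of the 6-nt readings, against 66.6% of all. These shares are descriptions of readings that partly overlap, and a repeat in the letters does not show that the RNA was paired.

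**Figure D2:**
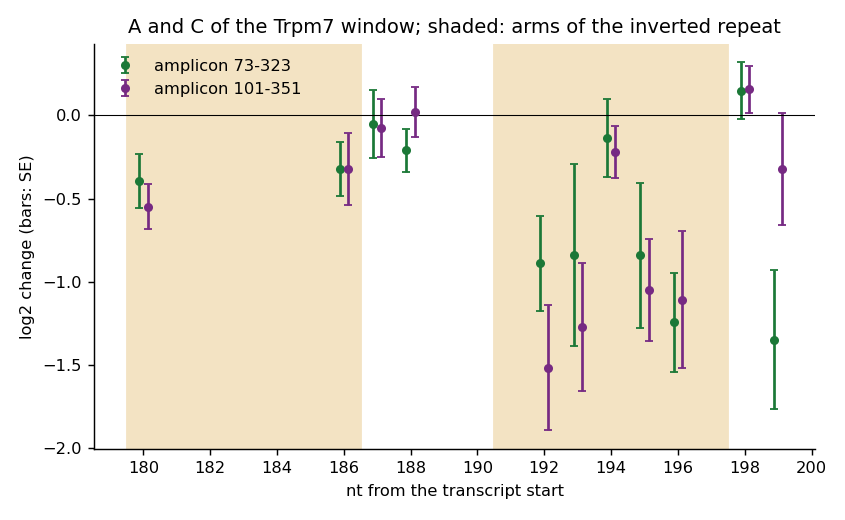
Difference in log2 CPM, ATP-depleted minus untreated, at each A and C of the Trpm7 window in its 2 amplicons, with the SE as bars, and the arms of the inverted repeat shaded. The 7 bases inside the arms lie below 0 in both amplicons, those at 187, 188 and 198 lie near 0, and the one at 199 lies at -1.35 and -0.32.

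Sertad2 encodes a transcriptional coregulator. At 151 to 175 in the amplicon from 111 to 361 the depleted samples read 11.66, 11.98 and 12.16 log2 CPM and the untreated ones 12.55, 12.52 and 12.68. The difference was -0.65 (SE 0.13, adjusted p of 0.396 in limma), and -0.42 in the overlapping amplicon. Its weak bases differed most: the C at 159 differed by -2.91 in the first amplicon, on 3 to 59 counts, and by -0.78 in the second. The window's difference was -0.24 with a pseudocount of 0.5 times the median and -0.01 over its bases at or above the median level alone.

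Chd2 encodes an ATP-dependent chromatin remodeller, and 4 of its 16 window readings had an unadjusted p under 0.05, all lower, against 7.21% of all windows in that direction. At 51 to 75 in the amplicon from 31 to 281, the depleted samples read 11.49, 11.62 and 11.87 and the untreated ones 12.21, 12.14 and 12.17 log2 CPM, without overlap. The difference was -0.51 (SE 0.10, adjusted p of 0.396 in limma), and -0.27 in the other amplicon, whose groups overlapped. The run of C at 58 to 60, printed above, differed by -1.07, -0.35 and -1.12 in the first and by -0.54, -0.30 and -0.71 in the second. The A at 72 differed by 0.20 and 0.11. Over 15 settings, the window's difference in the first amplicon lay between -0.62 and -0.21.

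In Eif5, the part of the window at 551 to 575 that the amplicons covered gave 11.89, 11.82 and 11.86 log2 CPM after depletion and 12.18, 12.15 and 12.29 without it. The difference was -0.35 (SE 0.07, adjusted p of 0.396 in limma), and -0.26 in the second amplicon. In this first amplicon, from 341 to 591, 9 of the 10 A and C were lower and the C at 562 differed by 0.09. In the second, from 343 to 593, 9 of 11 were lower, and the C at 562 and at 565 differed by 0.10 and 0.26. In the amplicon from 341 to 591, coverage was 260 to 1393 counts per base on average, and the interval of the window's difference was -0.51 to -0.19. Over 16 settings the difference lay between -0.38 and -0.18.

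The higher windows were fewer. Tmtc2, an O-mannosyltransferase of the endoplasmic reticulum, read 12.79, 12.30 and 12.44 at 501 to 525 after depletion and 11.92, 11.85 and 11.69 log2 CPM without it. The difference of 0.69 (SE 0.14, adjusted p of 0.396 in limma) was over 6 bases at the amplicon's edge, and the largest single value was 2.37 at the C at 517. No second amplicon covered it. Cnot3, a subunit of the CCR4-NOT deadenylase, differed by 0.35 at 376 to 400, again at an amplicon's edge and with 1 reading. Its adjusted p was 0.481 in limma. Ddx17, a DEAD-box RNA helicase, differed by 0.32 at 351 to 375 in both amplicons, where all its readable bases are A. In the amplicon from 172 to 422 the groups did not overlap and the adjusted p was 0.481 in limma. In the amplicon from 333 to 583 they overlapped, with an adjusted p of 0.645 in limma and a 95% interval of -0.05 to 0.69.

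**Figure D3:**
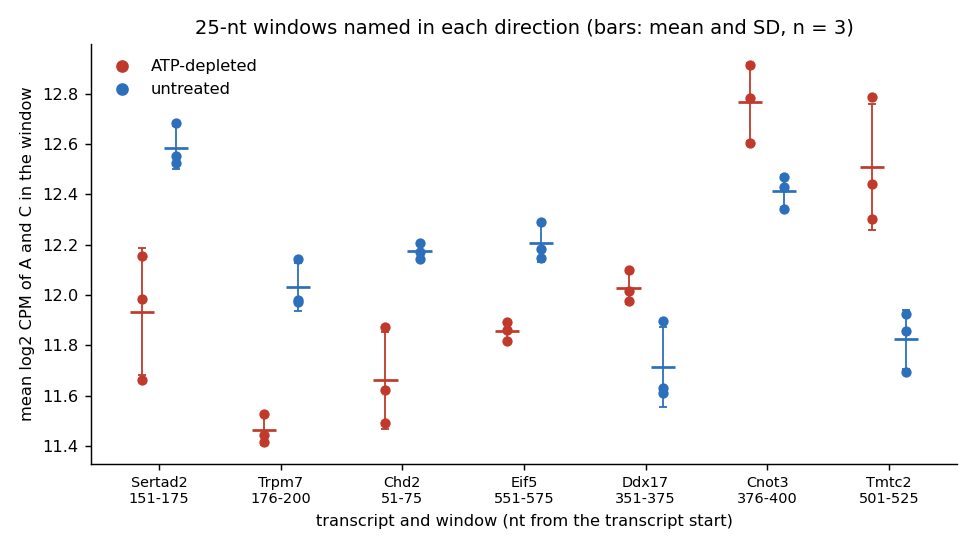
Mean log2 CPM of A and C in each sample for 4 lower and 3 higher windows, with the group mean and SD (n = 3). The groups do not overlap in any of the 7 windows, which were chosen by their p, and no adjusted p passed 0.05.

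Overlapping amplicons come from the same RNA samples but have different ends and their own counts, so each shared position has a second reading in every sample. How separately they were prepared is not known here. Some pairs start close together, as Eif5 at 341 and 343 and Hipk3 at 351 and 352. Over 2636 positions read and tested in 2 amplicons, the difference in one amplicon correlated with that in the other at Pearson r of 0.202 and Spearman rho of 0.234, over 67 amplicon pairs. For comparison, the deviations of single samples from their group mean correlated at 0.0307 to 0.105, and the levels themselves at 0.700 to 0.844. Positions are not independent, and both readings share the sample and the base. The sign was the same at 1548 positions (58.7%). Both readings had an unadjusted p under 0.05 at 45 positions, 42 with the same sign. The correlation was 0.224 over 2048 positions in amplicons of at least 5000 counts, and 0.112 over the 1159 positions above the median level in both. It was 0.146 without replicate 2 of the depleted group and 0.151 without replicate 3 of the untreated group.

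Agreement differed from leader to leader. Among 53 amplicon pairs that shared at least 10 positions, r was above 0 in 45 and had a median of 0.288. It was 0.882 over 13 positions of Ddx17 and 0.862 over 10 positions of its next pair, 0.818 over 23 positions of the ubiquitin ligase Rnf10, 0.756 over 90 positions of Ctcf, 0.714 over 78 of Chd2 and 0.684 over 71 of Trpm7. At the low end it was -0.438 over 43 positions of the transcription factor gene Klf7 and -0.365 over 16 positions of Azin1, the antizyme inhibitor.

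The differences of windows correlated more closely than those of single nucleotides, but no correlation of single-sample deviations was set beside them. In 230 windows read in both amplicons r was 0.451, and 151 (65.7%) had the same sign. An unadjusted p under 0.05 was seen in both readings of 9, and all 9 were lower after depletion on the deposited scale. Of all 113 window readings with an unadjusted p under 0.05, 97 were lower. The 9 windows were in Trpm7, Taok2, Sertad2, Dusp16, Eif5, Ddx17 (701 to 725 and 801 to 825), Nfe2l1 (526 to 550) and Ppm1b (226 to 250). After centring per amplicon, an alternative chosen after the values were seen, 10 windows had it in both readings, 5 lower in both, 4 higher in both and 1 with opposite signs. Trpm7, Taok2, Sertad2 and Dusp16 were the 4 of the first 9 that were also among these 10.

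Taok2 encodes a kinase of the MAP kinase cascade. Its window at 526 to 550 read 11.27, 11.27 and 11.40 log2 CPM after depletion and 12.10, 11.91 and 11.66 without it in the amplicon from 375 to 625. The other amplicon, from 440 to 690, read 10.32, 10.80 and 10.83 against 11.26, 11.27 and 11.59. The groups did not overlap in either, and the differences were -0.57 (SE 0.12) and -0.72 (SE 0.16), each with an adjusted p of 0.396 in limma. All 8 readable bases are C. The C at 538, inside the run of 4, differed by -1.73 on 21 to 178 counts and by -2.34 on 8 to 97 counts. The C at 539 and at 540 differed by -0.65 and -0.93 in the first amplicon and by -0.18 and -0.09 in the second. The C at 528 differed by 0.39 and 0.02. With both readings averaged, Taok2 and Trpm7 had the smallest adjusted p of all windows, 0.172 in limma for both, with differences of -0.65 and -0.56.

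Dusp16, a phosphatase of MAP kinases, differed at 551 to 575 by -0.76 in the amplicon from 412 to 662 and -0.28 in that from 529 to 779. In the first, 8 of 10 A and C were lower, on 5.33 to 146 counts per base on average. In the second, 4 of 8 were lower and the median over the bases was -0.04. The A at 570 differed by -2.85 and -0.99, on 27.8 and 266 counts on average, and the C at 557 by -0.95 and -1.41. In Ddx17 at 701 to 725 the differences were -0.33 and -0.31, and the C at 720 differed by -0.68 and -0.95. The C at 713 differed by -0.46 and -0.84, and the A at 721 by 0.01 and 0.12. The proteasome regulator Nfe2l1 differed by -0.21 and -0.30 and the phosphatase Ppm1b by -0.20 and -0.22.

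**Figure D4:**
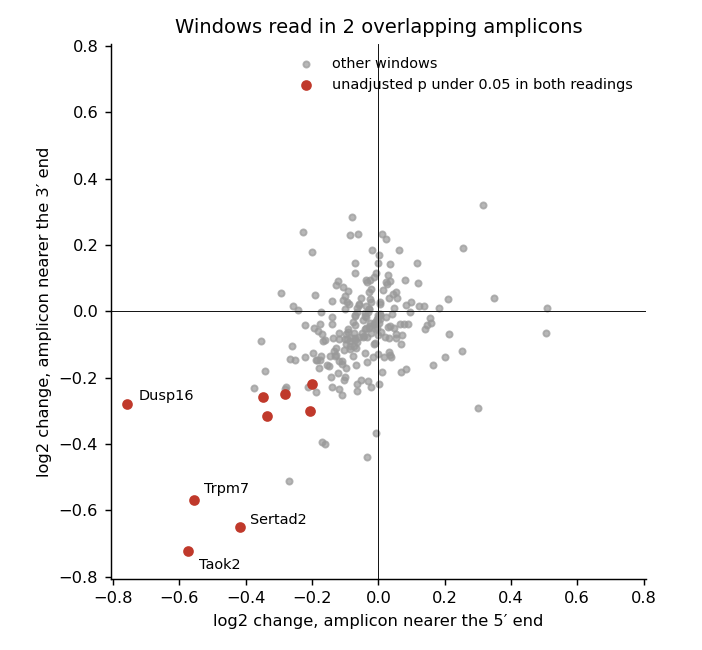
Difference in log2 CPM, ATP-depleted minus untreated, of the 230 windows read in 2 overlapping amplicons, one reading on each axis. Red points mark the 9 windows with an unadjusted p under 0.05 in both readings, which all lie in the lower left quadrant.

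Along the leaders, the mean difference varied little with position. In bins of 100 nt from the transcript start the mean difference ran from -0.03 to -0.08, and the smallest exact permutation p was 0.1 (two-sided), the smallest that 3 against 3 samples allow, or 0.413 after Benjamini-Hochberg adjustment over 11 bins. Over 5 equal sections of an amplicon it ran from -0.04 to -0.06. Windows with an unadjusted p under 0.05 were found in 54 of 69 transcripts and in none of the windows of 15, among them Eif4g3, Kdm2a, Srgap2, Bcl2 and Tle4. By nucleotide, the share with an unadjusted p under 0.05 ran from 1.10% to 15.8% per transcript with a median of 6.19%, and was largest in NM177047 (15.8%) and Chd2 (15.6%).

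**Figure D5:**
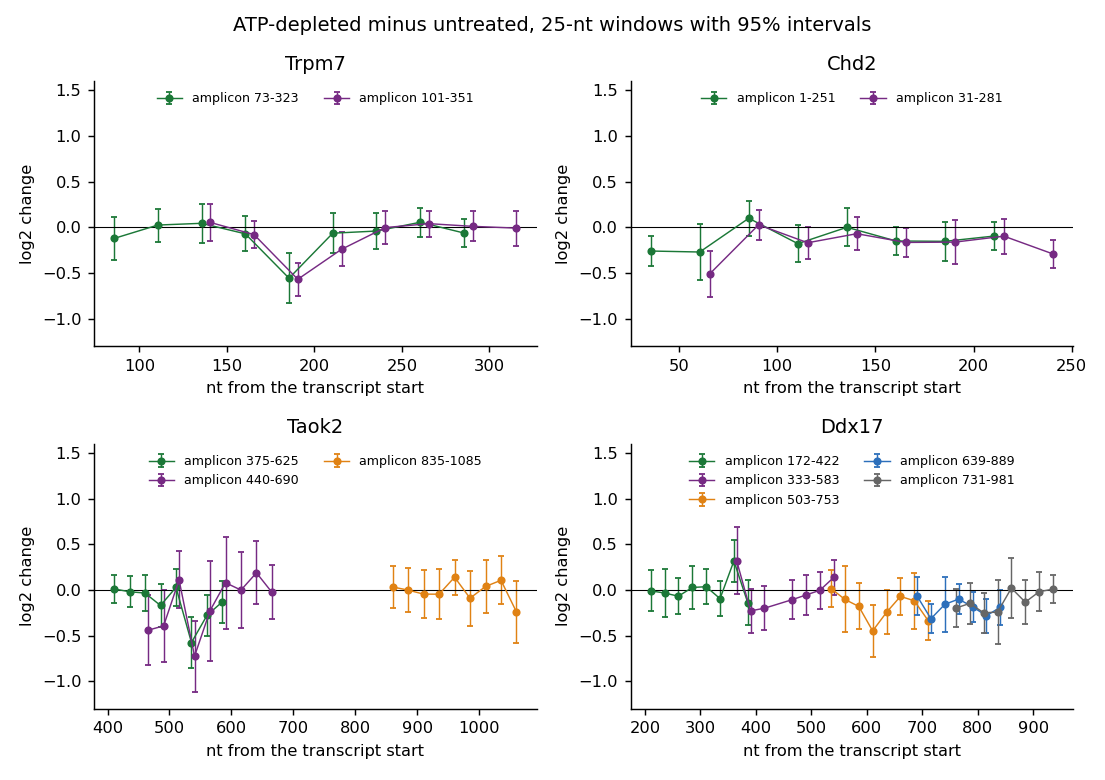
Difference in log2 CPM, ATP-depleted minus untreated, in 25-nt windows along 4 leaders, with 95% intervals and one colour per amplicon. Trpm7 and Taok2 each have 1 window between -0.56 and -0.72 in both overlapping amplicons, and the neighbouring windows lie nearer 0.

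The position of the signal within an amplicon was summarised as the signal-weighted mean position of its A and C. Of 161 amplicons, 0 passed and 13 (8.07%) had an unadjusted p under 0.05 in limma, 4 further downstream after depletion (2.48%) and 9 further upstream (5.59%). The median limit was 3.42 nt and the widest 15.5 nt. The count was 6 without untreated replicate 1, 8 without depleted replicate 3 or without untreated replicate 3, and 21 with the replicate number as a block. The kinase gene Nlk stood at 697.99, 699.00 and 698.78 nt after depletion and at 693.93, 694.75 and 696.69 nt without it, a difference of 3.47 nt (SE 0.914, adjusted p of 0.569 in limma). In Senp3, a SUMO protease gene, the difference was -4.64 nt (SE 1.17), from 135.7 to 131.1 nt, with the same adjusted p. Azin1 from 20 to 270 differed by -3.74 nt and Sertad2 from 111 to 361 by 2.46 nt, each with an adjusted p of 0.581 in limma.

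How unevenly the signal was spread was summarised by the Gini coefficient, which is 0 where all A and C react alike. Of 161 amplicons, 0 passed and 10 (6.21%) had an unadjusted p under 0.05 in limma, 9 higher after depletion (5.59%) and 1 lower (0.621%). The count was 6 without depleted replicate 3 or without untreated replicate 3, 16 without untreated replicate 1, and 31 with the replicate number as a block. Both Chd2 amplicons were the first named by the rule. In the amplicon from 1 to 251, the coefficient was 0.381, 0.369 and 0.373 after depletion and 0.336, 0.337 and 0.336 without it, a difference of 0.0380 (SE 0.00765). In the amplicon from 31 to 281 it was 0.374, 0.370 and 0.370 against 0.336, 0.336 and 0.340, a difference of 0.0335 (SE 0.00731). The groups did not overlap in either, as in 20 of 161 amplicons (12.4%), and both had an adjusted p of 0.236 in limma. Over 13 settings the difference lay between 0.0293 and 0.0412 in the first. In the second it lay between 0.000547, with A alone, and 0.0449, with C alone, and it was 0.00388 over values at or above the median. The readings share most of their bases, so they are not separate leaders. Ddx17 gave both signs along its length, -0.0233 and -0.0212 in its first 2 amplicons (172 to 422 and 333 to 583) and 0.0296 in the amplicon from 639 to 889.

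The amplicon means of A and C depend on the counts at all 4 bases and on the library factor. Of 161 amplicon means, 0 passed and 15 (9.32%) had an unadjusted p under 0.05 in limma, all lower. The smallest p was in NM177047 from 329 to 579, at 11.93, 11.94 and 11.83 log2 CPM after depletion and 12.10, 12.13 and 12.14 without it (difference -0.22, SE 0.05, adjusted p of 0.175 in limma). Chd2 from 31 to 281 differed by -0.17, and the 2 positive values of smallest p, in Ptms and Slc22a17, were 0.13 and 0.07 with overlapping groups. The count was moved by single samples: it was 7 without replicate 1 of the depleted group or replicate 2 of the untreated group, 8 without depleted replicate 2, 9 without untreated replicate 3, 19 without untreated replicate 1 and 27 without depleted replicate 3. With the replicate number as a block it was 46.

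The balance of A against C does not depend on an amplicon's scaling. Per sample, the median A minus C balance was 1.05, 0.91 and 0.99 on the log2 scale after depletion and 0.96, 0.84 and 0.96 without it. The difference of 0.07 had an exact permutation p of 0.4 (two-sided). By replicate number the differences were 0.09, 0.07 and 0.04, higher in 3 of 3 pairs, with an exact sign-flip permutation p of 0.25 (two-sided), the smallest that 3 pairs allow. The median of C alone, which does depend on scaling, was 12.15, 12.15 and 12.20 log2 CPM after depletion and 12.22, 12.24 and 12.25 without it. The groups were apart, with an exact permutation p of 0.1 (two-sided), the smallest possible. The median of A was 13.06, 12.97 and 13.10 against 13.07, 12.99 and 13.14, with an exact permutation p of 0.7 (two-sided). Of 161 amplicon balances, 0 passed and 12 (7.45%) had an unadjusted p under 0.05 in limma, 11 higher (6.83%) and 1 lower (0.621%). Eed, the Polycomb subunit, read 2.15, 2.01 and 2.10 from 71 to 321 after depletion and 1.83, 1.62 and 1.53 without it, a difference of 0.43 (SE 0.09, adjusted p of 0.426 in limma). Chtop, an mRNA export factor gene, differed by -0.36 from 696 to 946, and Kmt2e by 0.19. The count was 3 without depleted replicate 3, 7 without depleted replicate 1 and 8 without untreated replicate 1, and 28 with the replicate number as a block.

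At single nucleotides with at least median signal, the bases with the smallest p in each direction all had an adjusted p of 0.637 in limma. The 20 or 21 bases around 2 of them are given with the measured base in capitals.
Slc22a17 445 to 465: tgcagctcggCctgtgctgcc
Bcl2 841 to 860: ttttaccaaaAaagggtaaa
The C at 455 of Slc22a17, a lipocalin receptor gene, read 12.28, 11.70 and 11.77 log2 CPM after depletion and 13.56, 13.18 and 13.68 without it, a difference of -1.56 (SE 0.23). The A at 851 of Bcl2, the apoptosis inhibitor, read 12.86, 12.89 and 12.69 against 13.65, 13.56 and 13.70, a difference of -0.83 (SE 0.13). The groups were apart at both bases, as they were at 2002 of 16178 readings (12.4%). Others were Stox2 at 1248 (an A, 1.07), NM177047 at 390 (an A, 1.49) and R3hdm1 at 151 (a C, -1.41).

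The smallest p of all nucleotides lay outside that rule, at a weak C in Ddx17, and it was looked at after its values were seen. It stands at 742, in capitals here.
Ddx17 732 to 752: acagaagaggCaggagtttgg
It read 9.87, 10.19 and 9.97 log2 CPM after depletion and 11.48, 11.52 and 11.69 without it, on 107 to 397 counts. The difference was -1.55 (SE 0.15), with an adjusted p of 0.550 in limma. The C at 195 of Hexim1, an inhibitor of the elongation factor P-TEFb, had the same adjusted p and a difference of -1.35 (SE 0.14).

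The leaders were also read by the role of their gene, with lists chosen with earlier results of these data known, and 0 windows passed in any list. Of the 5 RNA helicase and translation factor genes (Cnot3, Ddx17, Ddx6, Eif4g3 and Eif5), 13 of 116 windows (11.2%) had an unadjusted p under 0.05, against 8.4% of all windows. Ddx17 alone had 8 of the 13, in 38 windows, and Eif5 had 3, in 27 windows. The median difference over the list was -0.03, against -0.05 over all. Of 6 chromatin regulators, which include Chd2 and the Polycomb subunit Eed, it was 13 of 168 windows (7.74%), all lower, with a median of -0.05. Of 8 genes listed as transcription factors and co-regulators, which by its symbol include the apoptosis inhibitor Bcl2, it was 8 of 144 (5.56%), and of 3 ubiquitin pathway genes 4 of 70 (5.71%).

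The list of kinase, phosphatase and signalling genes, 12 in all with Taok2 and Dusp16 among them, had 30 of 259 windows (11.6%), 27 of them lower, and a median of -0.07. It holds Sertad2, which is neither kinase nor phosphatase and had 6 of the 30. After the values were seen, Sertad2 was moved to the transcription list and Bcl2 was left out there, which gave 24 of 242 windows (9.92%) for the signalling list and 14 of 153 (9.15%) for the transcription list. Azin1, the single gene of polyamine metabolism, had 4 of 33 (12.1%). In 5 genes of RNA processing and RNA binding, such as Mbnl1 and Rbm10, it was 8 of 65 (12.3%), all lower. Among these was Mbnl1 701 to 725 (-0.29, SE 0.09, adjusted p of 0.481 in limma). Windows of overlapping amplicons count more than once in these shares.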

How the data were processed

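DMS-induced mutations were profiled in 6 samples of E14 cells, grouped by their titles. The authors deposited log2 values, 1 per nucleotide and sample. The submitters' processing notes name bcl2fastq, Bowtie2 and limma with no role or version. No source used here gives the mutation counter or the genome build, so positions are those of the transcript and no genome coordinates are printed. Whole counts plus 0.5 were recovered from 100% of values in 966 of 966 libraries (tolerance 0.0001). The values are therefore log2 CPM within an amplicon, with a library factor that differed between libraries. Without coverage per position, mutation rates could not be had. Counts come from amplified cDNA, and intervals cover the spread between samples only. Transcripts were named through a RefSeq table, which matched 68 of 69.

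limma 3.58.1 in R 4.3.3 was run on the deposited log2 values of the 6 samples, with a mean per group, no trend or robust option, and Benjamini-Hochberg adjustment over all features of a kind at a threshold of 0.05, two-sided. The code was tested on simulated data. Features were nucleotides with counts in at least 1 sample, 25-nt windows with at least 5 A or C, and amplicon means, Gini coefficients, signal centroids and A minus C balances. Named items were the 4 windows, 3 nucleotides at or above the median level, and 2 amplicons per summary with the smallest p in each direction, beside lists of genes by function. Some items that this rule named are not reported here. The members and lists were chosen with earlier results of these data known.

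Replicate numbers in the titles could pair the samples. Deviations of same-numbered samples correlated at 0.060, 0.105 and 0.036 over nucleotides and at 0.230, 0.236 and 0.091 over windows. Samples with different numbers reached at most -0.005 over nucleotides and 0.026 over windows, below each of these values. The numbers could thus pair the samples for nucleotides and windows, though the main fits took no pairs. Over amplicon means, Gini coefficients, centroids and A minus C balances, every such correlation was above 0.1 (0.123 to 0.696). By the data alone, the numbers could therefore pair the samples for those measures as well. Samples with different numbers reached 0.199 for Gini coefficients and 0.209 for balances, above the lowest same-numbered values of 0.131 and 0.123. The SE and adjusted p of named nucleotides, windows and amplicons come from the fit without pairs. Counts with the replicate number as a block are given beside that fit or in the closing section. Alternatives changed the scale, filters, bases, weights, window size, ends, depth minimum, overlap handling and samples, 1 at a time.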

Additional observations from a re-analysis of the deposited data

How the results depend on the processing

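None of 93 alternative fits called a feature at an adjusted p of 0.05 in limma. Of 386 values of named features under these alternatives, 379 kept their sign. The other 7 turned: with values at or above the median alone, the amplicon mean of NM177047 to 0.18; with A alone, the means of Ptms to -0.013, Slc22a17 to -0.13 and NM177047 to 0.023, and the centroid of Azin1 to 0.25 nt; with C alone, the Gini coefficient of Ddx17 from 172 to 422 to 0.0038; without 25 nt at each amplicon end, the centroid of Sertad2 to -1.15 nt. The cause was not tested. The correlation between overlapping amplicons was 0.112 with values at or above the median and ranged from 0.146 to 0.220 with 1 sample left out.

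The replicate block ended or made no call. It moved the count with an unadjusted p under 0.05 from 1065 to 1106 nucleotides, 113 to 171 windows, 15 to 46 amplicon means, 10 to 31 Gini coefficients, 13 to 21 centroids and 12 to 28 A minus C balances. With values at or above the median, 24 of 865 windows (2.77%) had an unadjusted p under 0.05. With 1 sample left out, such counts ranged from 839 to 1130 nucleotides, 82 to 120 windows, 7 to 27 amplicon means, 6 to 16 Gini coefficients, 6 to 15 centroids and 3 to 15 A minus C balances. Amplicon means with an unadjusted p under 0.05 numbered 4 with values at or above the median, 6 with A alone and 26 with C alone. The smallest adjusted p of any alternative was 0.0523, for windows with precision weights from the counts.

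A common shift of a whole amplicon cannot be seen in these values, and 3 samples per group allow no exact p below 0.1. Nucleotides with 10 to 30 counts on average had a median limit of 4.02-fold, and those with 10 or fewer had one of 5.69-fold. Differences that miss the threshold are not shown to be absent within the intervals given.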
